A study of Homo sapiens with 9 samples.

Results

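The genes described here are 45 parts of the autophagy machinery and its regulators, out of 58735 genes in the count table. They were chosen by name from a written list, with no threshold on measured values but with earlier results of these data known, and all 45 were found. By step they are 17 genes of initiation and membrane supply, 16 of ATG8 conjugation, 6 cargo receptors, 3 genes of autophagosome-lysosome fusion and 3 transcription factors of the TFEB family. RNA was measured by bulk RNA-Seq in MIA PaCa-2, an established pancreatic cancer cell line whose genotype is given as WT in all groups. Every culture received a 24-h treatment: 0.1% DMSO as the vehicle, 1 μM compound 1, an inhibitor of the kinases TBK1 and IKKε, or 1 μM SCH772984, an inhibitor of the kinases ERK1 and ERK2. Each treatment has 3 libraries, numbered 1 to 3. The labels do not say whether these came from separate cultures, so the p-values measure the spread between these libraries, which may be technical. A single cell line at a single dose and time limits the groups as models of either kinase pathway.

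Macroautophagy encloses cytoplasm in a new membrane that grows into an autophagosome and then fuses with a lysosome, where the contents are degraded. The ULK kinase complex starts the process, a phosphatidylinositol 3-kinase complex marks the membrane, and a ubiquitin-like conjugation system attaches proteins of the ATG8 family (LC3 and GABARAP) to it, to which cargo receptors bind. TFEB, TFE3 and MITF are related transcription factors that switch on lysosomal and autophagy genes when they enter the nucleus, a step that mTORC1 and ERK are known to restrain by phosphorylation. TBK1 is known to phosphorylate cargo receptors such as p62 and optineurin, which is an event on protein and is not seen in RNA.

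The libraries held 9464432 to 10286223 counts with DMSO, 9652741 to 9840769 with compound 1 and 11056977 to 13887859 with SCH772984. Replicate pairs differed beyond counting noise in every group (chi-square per degree of freedom 2.34 to 10.1), and compound 1 replicate 1 stood apart from its replicates 2 and 3 (10.1 and 7.61, against 2.66 between those). Of 12 tested genes known as outputs of ERK signaling, 11 were lower with SCH772984 (SPRY4, an ERK-induced inhibitor of RAS signaling, had a log2 fold change of -6.81) and 1 was higher, and 0 passed with compound 1. The line expressed KRT8, KRT18, KRT19 and VIM, while KRT7, EPCAM and CDH1 had 0 to 5 counts per library. With SCH772984, KRT8, KRT18 and VIM fell (log2 -1.69, -2.40 and -0.23). The summed level of these 7 line markers was 5865 to 6240 CPM (counts relative to the library total, scaled by TMM factors) with DMSO, 5438 to 6614 with compound 1 and 3203 to 3509 with SCH772984, and its part in the results was not tested. Of 11 marker genes of leukocytes, endothelium, fibroblasts, acinar and islet cells, 8 had at most 1 count in every library. Their summed level was 3.28 to 4.81 CPM with DMSO, 6.54 to 7.50 with compound 1 and 7.91 to 10.1 with SCH772984. COL1A1 and PDGFRB rose and CDH5 fell with SCH772984, and their part in the results was not tested.

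Before treatment the 45 genes differed widely in level. Per length (CPM per kb of gene length, DMSO mean ± SD, n = 3), the highest was VMP1, a membrane protein of the endoplasmic reticulum that is needed for autophagosome formation, at 36.7 ± 2.44. SQSTM1 (p62) followed at 32.5 ± 2.08 and TFE3 at 24.2 ± 1.78. The libraries of VMP1 and SQSTM1 overlapped, and those of TFE3 lay below both. BNIP3L, PIK3R4, ATG4D and MAP1LC3B came next at 21.3 ± 1.58, 19.8 ± 0.13, 19.4 ± 0.67 and 19.0 ± 1.20, neighbors that did not differ beyond their spread. At the other end stood GABARAP at 0.18 ± 0.12, BNIP3 at 0.20 ± 0.05, MITF at 0.27 ± 0.06 and TFEB at 0.39 ± 0.10. These 4 genes are close to the limit of this depth, with 1 to 26 counts per DMSO library. The place of GABARAP in this order is uncertain, because other genes share 55.7% of its exonic bases. Gene length here covers all annotated exons, which can exceed the transcript expressed, so the order between genes is approximate.

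**Figure D1:**
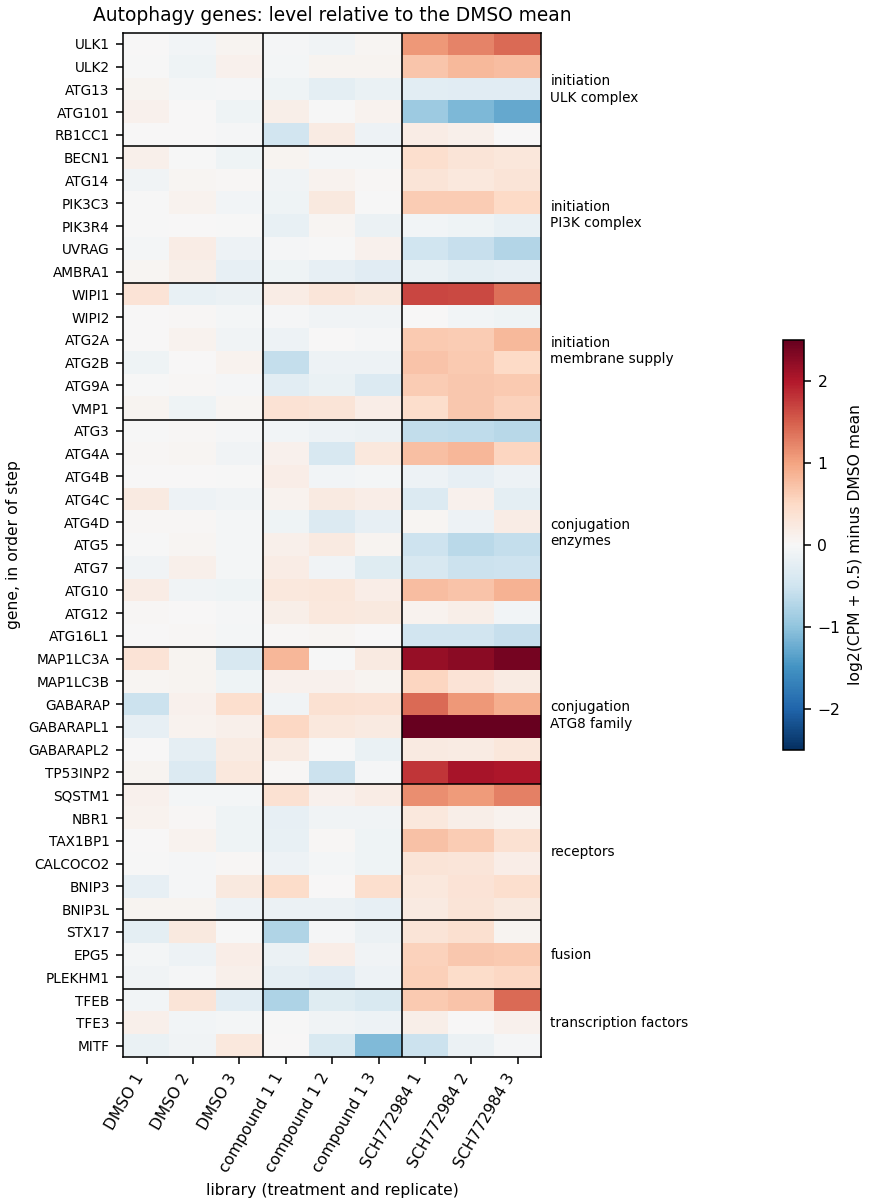
Level of each of the 45 genes (rows, in order of step) in each of the 9 libraries (columns), as log2(CPM + 0.5) minus the mean of the DMSO libraries; colors end at 2.5 in either direction. The 3 SCH772984 columns stand apart, most of all in MAP1LC3A, GABARAPL1 and TP53INP2, whereas the compound 1 columns resemble the DMSO columns.

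With SCH772984 the autophagy genes moved in both directions. All 45 passed the filter on low counts and were tested, and 26 were higher, 9 lower and 10 not called against DMSO (edgeR quasi-likelihood test, Benjamini-Hochberg adjusted p under 0.05 over all genes). Over all 13834 genes tested, 37.2% were called higher and 35.5% lower, so 26 of 45 is a larger share and 9 of 45 a smaller one, which is given as a description. GABARAP passed the filter only through the SCH772984 libraries, and without it the counts were 25 higher and 9 lower of 44. The median log2 fold change of the 45 was 0.31, against 0.03 over all genes. At least 2-fold, 8 were higher (ULK1, WIPI1, MAP1LC3A, GABARAP, GABARAPL1, TP53INP2, SQSTM1 and TFEB) and ATG101 was lower. TFEB was under 2-fold without DMSO replicate 3 or SCH772984 replicate 3, and ATG101 with scaling by library size alone. These shares stand beside 18.2% and 10.6% of all genes, so that 8 of 45 is near the share at large.

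Fold changes are relative to the bulk of the genes, since no spike-in RNA was counted. In bulk RNA, fewer cells of a type and less RNA per cell cannot be told apart. Scaling by library size alone raised the median of all genes from 0.03 to 0.20 and gave 31 members higher and 6 lower.

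Of the 5 genes of the ULK kinase complex, 2 were higher, 2 lower and 1 not called, shares near the 37.2% and 35.5% of all genes. With scaling by library size alone, 3 were higher and 1 lower. ULK1 (ENSG00000177169, chr12:131894651-131923167, GRCh38), the kinase that starts autophagy, was at 30.6, 28.9 and 31.8 CPM in the DMSO libraries 1 to 3 and at 65.3, 72.4 and 81.6 with SCH772984. The compound 1 libraries held 29.98, 28.6 and 31.4 CPM. All SCH772984 libraries lay above all others, a 2.40-fold rise (log2 1.26 ± 0.09 SE, adjusted p = 5.52e-17). ULK2, its close relative, rose by 0.76 ± 0.08 on the log2 scale.

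ATG101 (chr12:52069246-52077494), a subunit that stabilizes ATG13 in this complex, had 26.6, 24.9 and 22.8 CPM with DMSO against 12.9, 11.03 and 9.91 with SCH772984. Compound 1 left 27.3, 24.5 and 26.4 CPM. The SCH772984 libraries lay below all others, 2.21-fold lower (log2 -1.14 ± 0.13, adjusted p = 1.31e-10). Antisense exons cover 19.2% of its exonic bases, but that antisense gene had 0 counts in every library. ATG13, the adaptor subunit, was lower by a smaller step (log2 -0.28 ± 0.09, adjusted p = 0.0033) and lost its call when libraries were scaled by size alone (-0.11, adjusted p = 0.26). RB1CC1 (FIP200), the scaffold, was not called at 0.11 ± 0.07, but passed in 4 alternatives, among them the same scaling (0.28, adjusted p = 3.80e-04) and the fit without SCH772984 replicate 3.

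Of the 6 genes of the phosphatidylinositol 3-kinase complex and its partners, 3 were higher and 2 lower, the latter near the 35.5% of all genes. With scaling by library size alone, 3 were higher and 1 lower. PIK3C3, the lipid kinase VPS34, rose by 0.59 ± 0.09, BECN1 (Beclin 1) by 0.34 ± 0.09 and ATG14, the subunit that directs the complex to autophagy, by 0.31 ± 0.09. UVRAG, which replaces ATG14 in a second form of the complex that acts on endosomes, was at 22.01, 25.8 and 20.7 CPM with DMSO and at 15.9, 15.1 and 13.5 with SCH772984. With compound 1 it was at 22.2, 22.6 and 24.6 CPM, within reach of DMSO. The SCH772984 group did not overlap the others, and UVRAG was 1.55-fold lower (log2 -0.63 ± 0.13, adjusted p = 2.04e-05). AMBRA1, a regulator of Beclin 1, was called lower at -0.22 ± 0.09 (adjusted p = 0.031) and lost that call in several alternatives. PIK3R4, the regulatory subunit VPS15, was not called at -0.13 ± 0.07.

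Of the 6 genes that supply membrane to the growing autophagosome, 5 rose, beside 37.2% of all genes, and WIPI2 was not called (-0.06 ± 0.07). Their median log2 fold change was 0.64. WIPI1, a protein that binds phosphatidylinositol 3-phosphate, was at 5.43, 3.64 and 3.72 CPM with DMSO and at 14.3, 14.3 and 11.6 with SCH772984. Compound 1 gave 4.84, 5.32 and 5.08 CPM, inside the DMSO range. WIPI1 rose 3.11-fold with SCH772984 (log2 1.64 ± 0.18, adjusted p = 7.83e-11). ARSG, whose exons overlap 24.3% of WIPI1 on the other strand, had 16 to 18 counts with DMSO and 12 to 32 with SCH772984. WIPI1 itself had 53, 33 and 34 counts with DMSO and 170 to 174 with SCH772984.

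ATG9A, the scramblase on the vesicles that seed the membrane, held 55.4, 57.3 and 54.9 CPM with DMSO and 87.6, 89.8 and 88.6 with SCH772984. It rose 1.58-fold (log2 0.66 ± 0.07, adjusted p = 8.19e-11). A gene on the same strand, AC068946.2, shares 38.8% of its exonic bases and had 0 to 35 counts. VMP1 went from 266, 234 and 261 CPM with DMSO to 345, 405 and 379 CPM with SCH772984. All of its treated libraries lay above the DMSO libraries, a 1.48-fold rise (log2 0.56 ± 0.06, adjusted p = 1.87e-10). The lipid transfer proteins ATG2A and ATG2B rose by 0.71 ± 0.09 and 0.62 ± 0.09.

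Of the 10 conjugation enzymes, 2 were higher, 5 lower and 3 not called, beside 37.2% higher and 35.5% lower of all genes. Their median log2 fold change was -0.16. With scaling by library size alone, 4 were higher and 4 lower (median 0.01). ATG3 (chr3:112532509-112562046), the E2-like enzyme that hands ATG8 proteins to lipid, was at 69.6, 70.8 and 68.6 CPM with DMSO and at 45.4, 44.8 and 42.8 with SCH772984. Compound 1 gave 66.6, 63.7 and 63.3 CPM. Replicates agreed closely, and the SCH772984 libraries were 1.58-fold lower than DMSO (log2 -0.66 ± 0.08, adjusted p = 4.54e-10).

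ATG5, which joins ATG12 to form the E3-like part of the system, had 49.6, 51.6 and 47.9 CPM with DMSO and 34.6, 31.0 and 32.6 with SCH772984. With compound 1 it had 54.5, 58.3 and 52.1 CPM. It was 1.52-fold lower with SCH772984 (log2 -0.61 ± 0.09, adjusted p = 4.04e-08), without overlap between the groups. ATG16L1, which places that complex on the membrane, fell by 0.52 on the log2 scale (SE 0.08) and ATG7, the E1-like enzyme, by 0.50 (SE 0.11). ATG3, ATG5, ATG7 and ATG16L1 were thus each called lower, whereas ATG12 itself was not called (0.05 ± 0.08). ATG10, the E2-like enzyme for ATG12, rose by 0.82 ± 0.16. RPS23, whose exons overlap 6.9% of ATG10 on the other strand, had 3390 to 4307 counts per library, against 62 to 205 for ATG10.

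The ATG4 proteases, which trim ATG8 proteins and release them from lipid, did not move together. ATG4A rose by 0.72 ± 0.13, ATG4C and ATG4D were not called (-0.17 ± 0.15 and 0.04 ± 0.09), and ATG4B was called lower at -0.16 ± 0.07 (adjusted p = 0.038), a direction that turned to 0.01 with scaling by library size alone.

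Of the ATG8-family genes and TP53INP2, 6 of 6 were called higher, or 5 of 5 without GABARAP, beside 37.2% of all genes. GABARAP passed the count filter only through the SCH772984 libraries. The median log2 fold change was 1.91, or 2.00 (the value of TP53INP2) over the 5 genes without GABARAP. The size of the rise differed widely between the genes. GABARAPL1 (ENSG00000139112, chr12:10212458-10223130) was at 3.79, 4.74 and 4.92 CPM with DMSO, at 6.56, 5.42 and 5.29 with compound 1 and at 29.7, 29.1 and 30.1 with SCH772984. The SCH772984 libraries were tightly grouped far above the rest, a 6.60-fold rise (log2 2.72 ± 0.15, adjusted p = 3.94e-21) and the largest among the 45 genes. MAP1LC3A (chr20:34546854-34560345), which encodes LC3A, was at 7.47, 6.07 and 4.26 CPM with DMSO, at 10.6, 5.73 and 6.85 with compound 1 and at 28.0, 29.5 and 32.5 with SCH772984. It rose 5.02-fold with SCH772984 (log2 2.33 ± 0.15, adjusted p = 1.80e-18), with no overlap.

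TP53INP2 (chr20:34704290-34713439), which encodes DOR, a nuclear protein that moves to autophagosomes and binds ATG8 proteins, had 8.7, 6.4 and 9.95 CPM with DMSO and 29.5, 36.1 and 34.9 with SCH772984. It rose 3.997-fold (log2 2.00 ± 0.14, adjusted p = 1.65e-17). With compound 1 it had 8.38, 5.52 and 8.09 CPM, at the level of DMSO.

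The family members that were already abundant moved less. MAP1LC3B, the LC3B gene whose protein is the usual marker of autophagosomes, went from 104, 105 and 93.4 CPM to 146, 128 and 116, a 1.28-fold rise (log2 0.36 ± 0.07, adjusted p = 3.81e-05). Its near copy MAP1LC3B2, 98.5% identical over 411 aligned bases, had 19 to 107 counts per library. GABARAPL2 (GATE-16) had 40.5, 34.3 and 46.4 CPM with DMSO and 46.9, 46.1 and 49.0 with SCH772984. Its highest DMSO library lay inside the SCH772984 range, and the rise of 0.23 ± 0.09 (adjusted p = 0.026) was not called in DESeq2 (adjusted p = 0.067) or in 4 of the 6 fits that left out a library, reaching 0.10 (adjusted p = 0.39) without DMSO replicate 2.

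GABARAP (chr17:7240014-7242770) had only 1, 4 and 6 counts with DMSO, 3, 6 and 6 with compound 1 and 22, 16 and 17 with SCH772984. It was called higher (log2 1.82 ± 0.51, adjusted p = 0.0016), with a value of 1.33 without DMSO replicate 1. Other annotated genes cover 55.7% of its exonic bases, on both strands, so its low count cannot be read as the level of the GABARAP transcript.

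Per length of all annotated exons, the makeup of the ATG8-family RNA therefore shifted. The size of each share depends on that length, which can differ from the length of the transcript expressed. MAP1LC3A and GABARAPL1 together were 9.84% to 13.5% of the summed level per length of the 5 ATG8 genes with DMSO, 11.97% to 17.6% with compound 1 and 34.6% to 40.1% with SCH772984. MAP1LC3B was 47.8% to 55.1% of the sum with DMSO and 34.1% to 41.0% with SCH772984, and GABARAPL2 was 31.5% to 41.6% and 23.2% to 25.1%. GABARAP, whose own level is uncertain, is counted in these sums. Over the 4 genes without it, the share of MAP1LC3A and GABARAPL1 was 9.92% to 13.6% with DMSO and 35.04% to 40.4% with SCH772984. The DMSO and SCH772984 ranges did not overlap for any of these shares. In levels per length (mean ± SD), MAP1LC3A went from 3.37 ± 0.91 to 17.0 ± 1.30, and its SCH772984 libraries overlapped those of GABARAPL2 (15.6 ± 0.49).

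**Figure D2:**
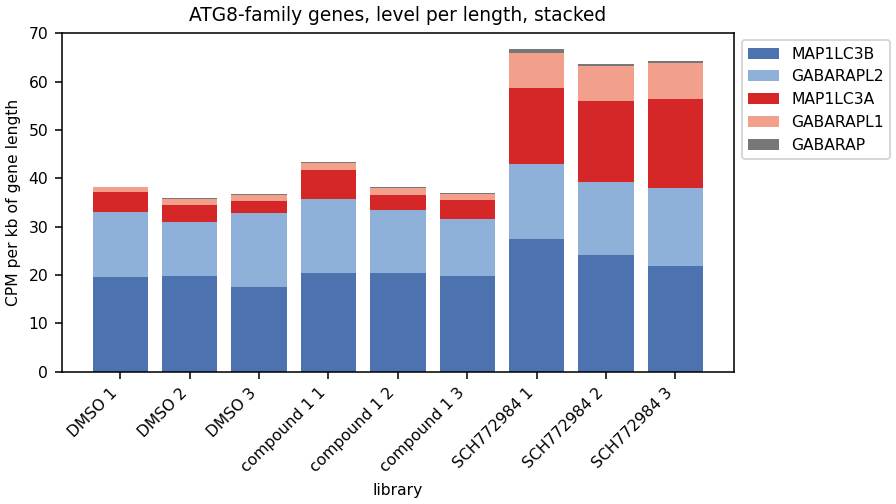
Level per length (CPM per kb of gene length, linear axis from 0) of the 5 ATG8-family genes, stacked for each of the 9 libraries. The red and salmon parts, MAP1LC3A and GABARAPL1, make up 34.6% to 40.1% of each SCH772984 bar and 9.84% to 17.6% of the other bars.

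Of the 6 cargo receptors, 5 were called higher and 0 lower, beside 37.2% and 35.5% of all genes. Their median log2 fold change was 0.36. SQSTM1 (chr5:179806398-179838078), which encodes p62, the receptor that links ubiquitinated cargo to LC3, was at 267, 241 and 239 CPM with DMSO, at 324, 267 and 281 with compound 1 and at 554, 518 and 599 with SCH772984. All SCH772984 libraries lay above the other 6, and the rise was 2.23-fold (log2 1.16 ± 0.06, adjusted p = 1.08e-20). On the other strand, MRNIP overlaps 20.7% of the exonic bases of SQSTM1 and MGAT4B 1.4%. MGAT4B had 2602 to 3126 counts with DMSO and 4322 to 6304 with SCH772984. MRNIP counts were 177 to 234 with DMSO and 662 to 991 with SCH772984, against 2183 to 2612 and 6153 to 8954 for SQSTM1.

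TAX1BP1, a receptor that also binds ubiquitin, rose from 133, 140 and 122 CPM to 219, 205 and 172 CPM, 1.501-fold (log2 0.59 ± 0.07, adjusted p = 6.74e-09). Its 3 SCH772984 libraries spread more than those of DMSO yet did not overlap them. The other receptors moved less: CALCOCO2 (NDP52) by 0.27 ± 0.07, the mitophagy receptor BNIP3L by 0.26 ± 0.07 and NBR1 by 0.16 ± 0.07 (adjusted p = 0.038), a call that several alternatives lost. BNIP3, a second mitophagy receptor, was near 1 CPM (8 to 23 counts per library) and was not called at 0.46 ± 0.40.

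In the fusion step, 2 of 3 genes rose, beside 37.2% of all genes. EPG5, a tether between autophagosomes and late endosomes or lysosomes, was at 37.6, 35.5 and 43.4 CPM with DMSO and at 58.1, 61.9 and 61.4 with SCH772984, a 1.55-fold rise (log2 0.64 ± 0.09, adjusted p = 9.53e-09). PLEKHM1, an adaptor that connects ATG8 proteins and the HOPS tethering complex, rose from 18.1, 18.9 and 21.1 CPM to 29.4, 26.9 and 27.8 CPM, 1.44-fold (log2 0.53 ± 0.11, adjusted p = 3.78e-05). For both genes the groups did not overlap. The pseudogene PLEKHM1P1, 95.7% identical over 3582 aligned bases, had 59 to 98 counts with DMSO and 174 to 356 with SCH772984, so reads could be divided between them. STX17, the SNARE on the autophagosome, was not called (0.26 ± 0.14, adjusted p = 0.090), but passed in 5 alternatives, among them scaling by library size alone (0.43, adjusted p = 0.0056) and the fits without DMSO replicate 2 or SCH772984 replicate 3.

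Of the 3 transcription factors, 1 (TFEB) rose, near the 37.2% of all genes, and the others were not called. TFEB (ENSG00000112561, chr6:41683978-41736259) was at 2.05, 2.87 and 1.75 CPM with DMSO, at 1.07, 1.67 and 1.56 with compound 1 and at 3.73, 3.87 and 6.63 with SCH772984. The SCH772984 libraries lay above the others, with replicate 3 well above replicates 1 and 2, and the rise was 2.16-fold (log2 1.11 ± 0.28, adjusted p = 4.82e-04). Without that library the value was 0.77 (adjusted p = 0.025). TFE3 (chrX:49028726-49043486) was at 112, 98.4 and 100.2 CPM with DMSO and at 115, 104 and 111 with SCH772984, groups that overlapped (log2 0.08 ± 0.07, 95% interval -0.06 to 0.22). It was called higher with scaling by library size alone (0.25, adjusted p = 0.0014) and when only genes with at least 10 counts in every library were kept (0.16, adjusted p = 0.042). MITF was at 1.64, 1.76 and 2.40 CPM with DMSO and at 1.16, 1.68 and 1.87 with SCH772984, also overlapping (log2 -0.29 ± 0.35). TFE3 was 94.8% to 98.4% of the summed level per length of the 3 factors in every library, so the rise of TFEB was that of a minor member, from 1.29% to 2.14% of the sum with DMSO to 2.39% to 4.29%. These are RNA levels, and the position of the factors in the cell was not measured.

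**Figure D3:**
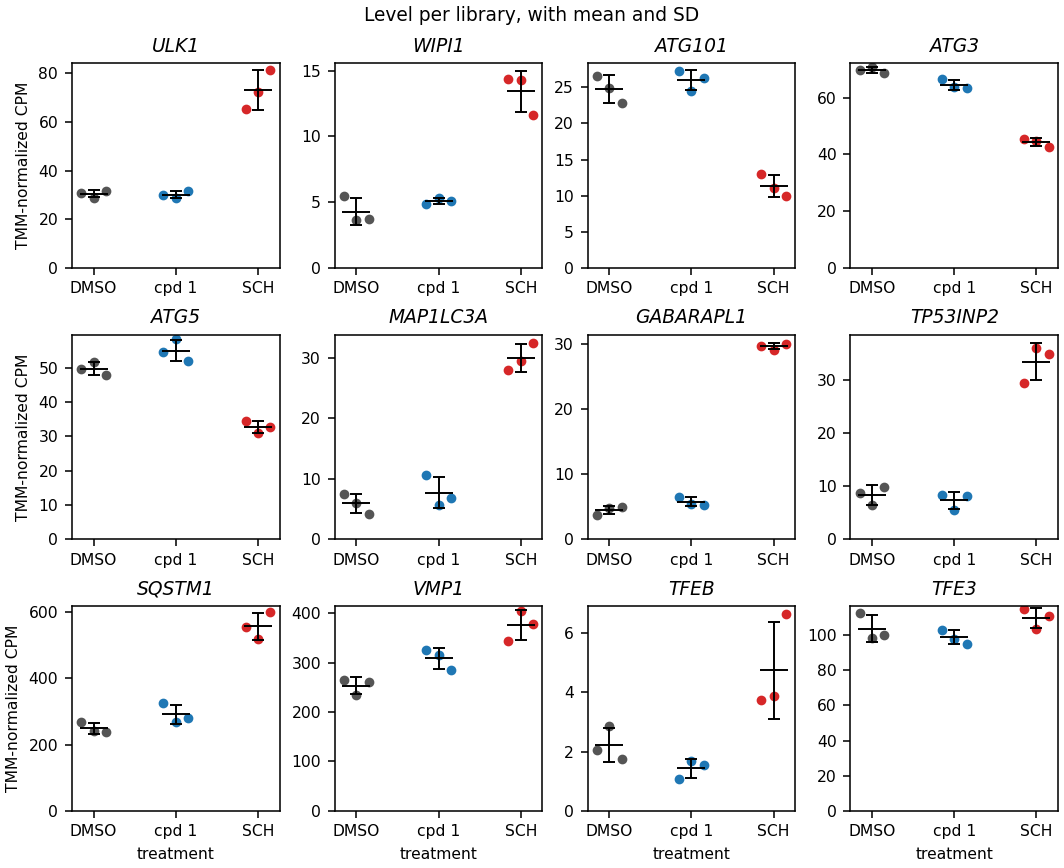
TMM-normalized CPM (linear axis from 0) of 12 of the genes in each library, with the mean and SD of the 3 libraries; cpd 1 is compound 1 and SCH is SCH772984. ULK1, WIPI1, MAP1LC3A, GABARAPL1, TP53INP2, SQSTM1 and TFEB lie higher with SCH772984 than in any other library, ATG101, ATG3 and ATG5 lie lower, and TFE3 overlaps between treatments.

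TFEB, TFE3 and MITF bind the E-box CACGTG, whose longer form TCACGTGA is the core of the CLEAR element of lysosomal genes. RefSeq promoter windows (GRCh38.p14, 250 bases before to 50 after a gene's start) matched 38 of the 45 genes (not UVRAG, STX17, EPG5, RB1CC1, BNIP3L, ATG4D and MAP1LC3A) and were searched on both strands. These genes had 50 windows, since some have several starts. CACGTG lay in 3 of the 50 (6%), each of a different gene, against 7.26% of 35116 windows of all genes. TCACGTG lay in 2 (4%, against 3.71%) and TCACGTGA in 1 (2%, against 0.980%), all of them also CACGTG matches, and the 10-letter CLEAR palindrome in 0 (against 0.353%). A match describes letters only. The 3 genes are shown because they carry the hexamer, in capitals, in windows from 150 bases before to 30 after the start, on the minus strand of the genome.
ATG14, chr14:55411801-55411980: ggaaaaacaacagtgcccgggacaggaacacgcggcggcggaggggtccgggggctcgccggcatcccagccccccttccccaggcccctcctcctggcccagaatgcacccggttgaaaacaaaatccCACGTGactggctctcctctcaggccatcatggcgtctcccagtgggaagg
ATG3, chr3:112561933-112562112: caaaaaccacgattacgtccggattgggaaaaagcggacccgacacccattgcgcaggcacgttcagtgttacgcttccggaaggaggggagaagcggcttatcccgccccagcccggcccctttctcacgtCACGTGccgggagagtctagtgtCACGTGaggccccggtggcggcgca
BNIP3, chr10:131981894-131982073: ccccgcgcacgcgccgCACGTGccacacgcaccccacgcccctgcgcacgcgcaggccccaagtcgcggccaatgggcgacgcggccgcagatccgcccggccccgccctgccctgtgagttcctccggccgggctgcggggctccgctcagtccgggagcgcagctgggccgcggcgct
The hexamer begins 21 bases before the start in ATG14, 18 before and at base 6 after the start in ATG3, and 134 before in BNIP3. With SCH772984, ATG14 was higher, ATG3 lower and BNIP3 not called.

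The other genes of the pathway were described from written lists of 99 genes, of which 94 were tested with SCH772984. Of these 53 were called higher and 20 lower, beside 37.2% and 35.5% of all genes, with a median log2 fold change of 0.33. Among 21 tested targets of the TFEB family, genes of the lysosome, 17 were higher and 2 lower (median 0.60), or 16 and 2 of 20 (median 0.55) without GPNMB, which passed the count filter only through the SCH772984 libraries. NEU1, a lysosomal sialidase, rose by 1.83 ± 0.09, and GPNMB, a lysosomal glycoprotein, went from 1 to 5 counts with DMSO to 62 to 100 with SCH772984. GLA, a lysosomal hydrolase, was lower at -0.45 ± 0.07. Further genes of selective autophagy, receptors along with some other proteins such as KEAP1, were higher in 12 of 17 and lower in 3 (median 0.57). Of these, 2 passed the filter only with SCH772984, and without them 10 of 15 were higher and 3 lower. The receptor CALCOCO1 and the ER-phagy receptor RETREG1 rose by 2.43 ± 0.11 and 2.40 ± 0.15, and PHB2, a mitochondrial membrane protein, and KEAP1, a ubiquitin ligase adaptor that p62 binds, had -1.14 ± 0.06 and -0.51 ± 0.07.

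Upstream regulators of TFEB were higher in 11 of 20 and lower in 4 (median 0.29), beside 37.2% and 35.5% of all genes. The Rag GTPases RRAGD and RRAGB rose by 1.32 ± 0.11 and 1.32 ± 0.14, while MTOR, the kinase of mTORC1, and its partner RPTOR had -0.50 ± 0.06 and -0.36 ± 0.07. Further initiation genes were nearly balanced, 7 higher and 6 lower of 18 (median 0.11), with ATG16L2 and ZFYVE1 at 1.64 ± 0.19 and 1.49 ± 0.10 and USP10 and WDR45B at -0.93 ± 0.06 and -0.72 ± 0.07. Further fusion genes, the HOPS tether and SNAREs, were 6 higher and 5 lower of 18 (median 0.13), with the SNARE VAMP8 and the HOPS subunit VPS39 at 1.49 ± 0.34 and 0.75 ± 0.07 and YKT6 and CCZ1 at -0.67 ± 0.07 and -0.41 ± 0.10. The initiation and fusion lists had shares near the 37.2% higher and 35.5% lower of all genes.

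**Figure D4:**
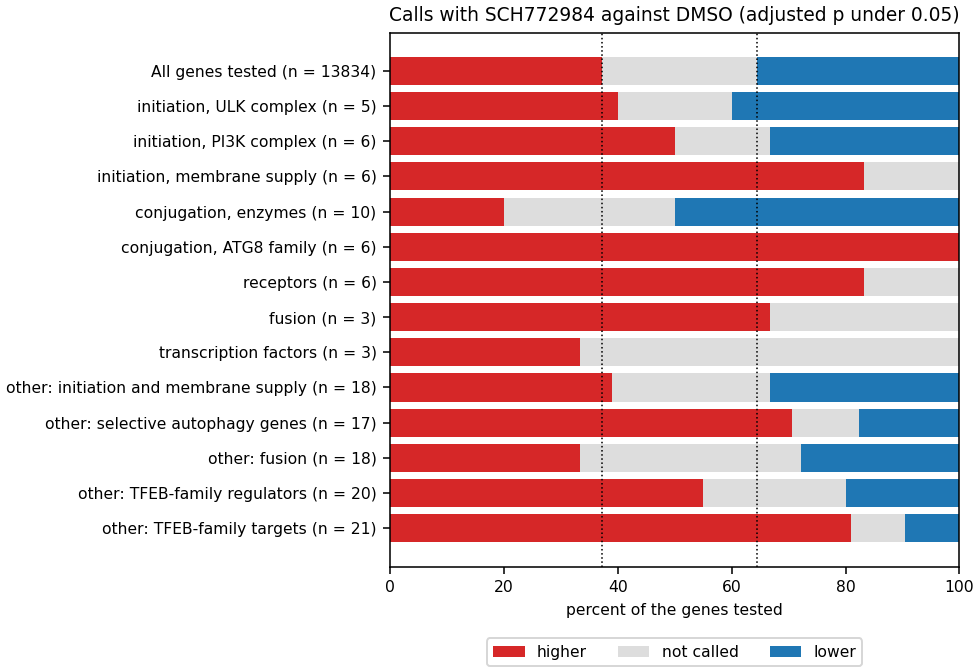
Percent of tested genes called higher (red), not called (gray) or lower (blue) with SCH772984 against DMSO at an adjusted p under 0.05, for all 13834 genes, for the groups of the 45 genes and for 5 lists of other pathway genes, with the number tested in parentheses. The dotted lines continue the edges of the bar for all genes (37.2% higher, 35.5% lower). The conjugation enzymes have the smallest red part. Among the groups of the 45 genes, membrane supply, the ATG8 family, receptors, fusion and transcription factors have no blue part.

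With compound 1, none of the autophagy genes passed the test. Of 44 tested genes (GABARAP fell below the count filter), 0 were higher and 0 lower against DMSO after adjustment in edgeR, and DESeq2 also called 0. Over all 12849 genes, 0.490% were called higher and 0.374% lower, 63 and 48 genes. Leaving out a library moved these counts to between 5 and 453 higher and between 3 and 798 lower. A replicate block moved them to 193 and 219. At an unadjusted p under 0.05, 3 were higher and 3 lower, beside 7.35% and 7.69% of all genes, which is near the share at large. The median log2 fold change was -0.02, against 0.002 over all genes.

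The smallest p belonged to VMP1, at 326, 316 and 284 CPM with compound 1 against 266, 234 and 261 with DMSO. The groups did not overlap, with a log2 fold change of 0.29 ± 0.07 (unadjusted p = 0.0013, adjusted p = 0.075). It passed the threshold without compound 1 replicate 1, the library that stood apart, at 0.25 (adjusted p = 0.0032), as did ATG12 and ATG4D there. SQSTM1, at 324, 267 and 281 CPM against 267, 241 and 239, was at 0.23 ± 0.08 (unadjusted p = 0.0099, adjusted p = 0.17), its lowest compound 1 library being level with the highest DMSO library. ATG9A, at 46.5, 50.02 and 44.1 CPM against 55.4, 57.3 and 54.9, was at -0.25 ± 0.09 (unadjusted p = 0.012, adjusted p = 0.19), without overlap. ATG12 was at 0.22 ± 0.08 (unadjusted p = 0.018), ATG4D at -0.22 ± 0.09 (0.032) and ATG2B at -0.27 ± 0.12 (0.044).

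The precision differed by gene. For abundant genes the intervals were narrow: the 95% interval of the log2 fold change with compound 1 was -0.23 to 0.19 for ULK1, -0.07 to 0.25 for MAP1LC3B and -0.24 to 0.10 for TFE3. For scarce genes they were wide: -0.14 to 0.90 for MAP1LC3A, -0.08 to 0.81 for GABARAPL1, -1.33 to 0.10 for TFEB and -1.40 to 0.27 for MITF. Moderate changes of these genes lie within these intervals and were not excluded. Of the 91 other pathway genes tested, OPTN, the receptor optineurin, was the only gene called (0.59, adjusted p = 0.046, with 182 to 198 counts in the DMSO and 233 to 339 in the compound 1 libraries), and it was named after its values were seen. With SCH772984, OPTN rose by 2.31 ± 0.09.

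**Figure D5:**
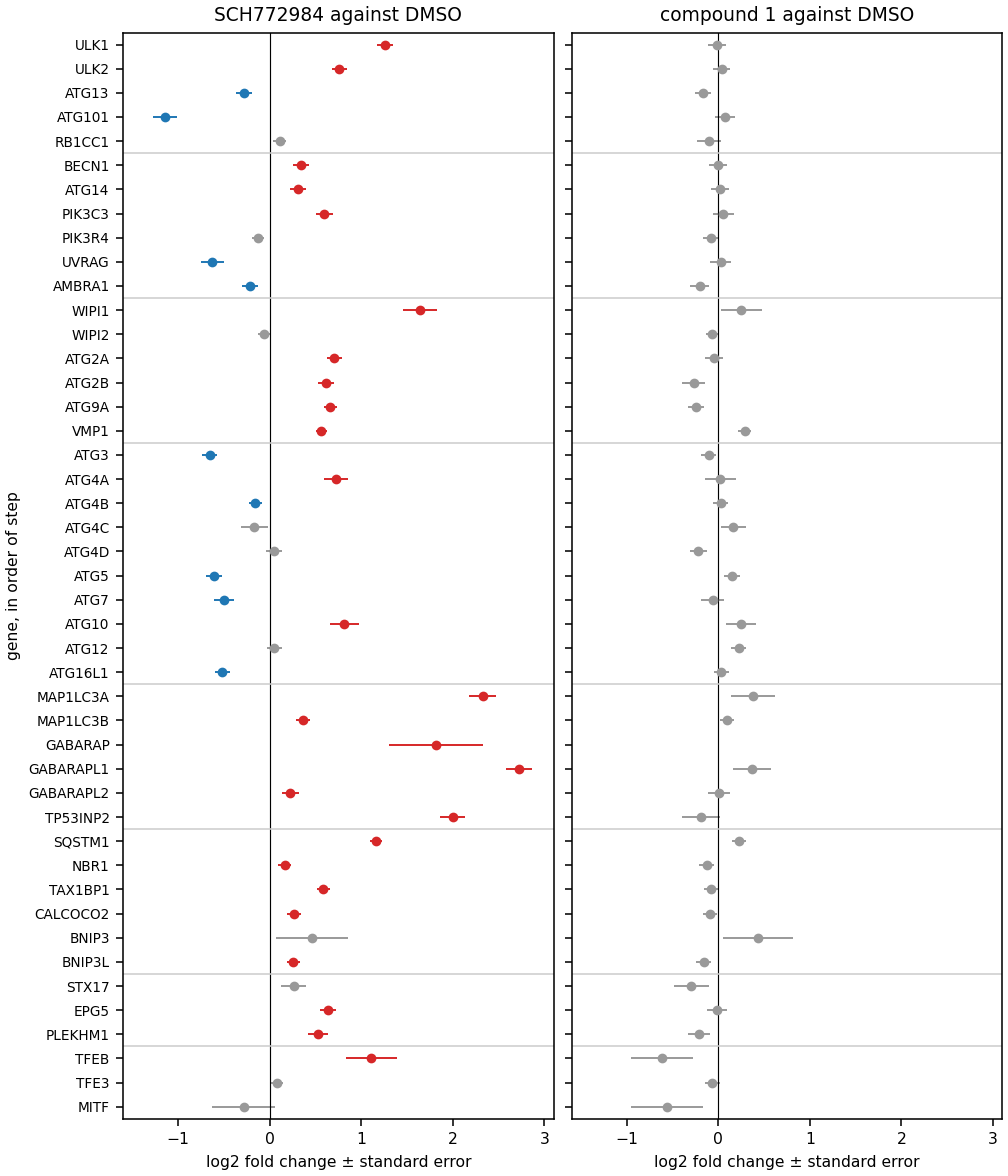
Log2 fold change (points) and standard error (bars) of the 45 genes, in order of step, with SCH772984 (left) and compound 1 (right) against DMSO; red and blue mark genes called higher and lower at an adjusted p under 0.05 and gray those not called. The left panel spans -1.14 (ATG101) to 2.72 (GABARAPL1), whereas no gene is colored on the right, where GABARAP was not tested.

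The inhibitors were compared directly at the same dose and time, in a fit of their 6 libraries. Against compound 1, SCH772984 had 27 of the 45 genes higher, 6 lower and 12 not called, beside 33.7% and 32.6% of all genes. Without GABARAP the counts were 26 higher and 6 lower of 44. The SCH772984 libraries are the same as in the comparison with DMSO, so these calls are not independent of it. GABARAPL1 was 5.15-fold higher with SCH772984 than with compound 1 (log2 2.37 ± 0.14, adjusted p = 1.13e-11), TP53INP2 4.58-fold (2.19 ± 0.15) and MAP1LC3A 3.89-fold (1.96 ± 0.17). ULK1 differed by 1.29 ± 0.11, TFEB by 1.73 ± 0.32 and SQSTM1 by 0.94 ± 0.09. ATG101, ATG5, UVRAG, ATG16L1, ATG3 and ATG7 were the 6 genes lower with SCH772984, from -1.21 ± 0.14 for ATG101 to -0.43 ± 0.13 for ATG7. STX17 and ATG4D were higher with SCH772984 than with compound 1 (0.57 ± 0.17 and 0.27 ± 0.11). ATG4D lost that call in DESeq2, without a count filter, and without compound 1 replicate 2 or 3 or SCH772984 replicate 1 or 3. Between the inhibitors, ATG13, AMBRA1, ATG4B and GABARAPL2 were not called (-0.10 ± 0.10, -0.002 ± 0.10, -0.18 ± 0.09 and 0.23 ± 0.11). VMP1 was called higher with SCH772984 (0.29 ± 0.08, adjusted p = 0.0057), a call lost without compound 1 replicate 3 or SCH772984 replicate 2.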

How the data were processed

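The authors deposited 1 table of read counts per gene, whole numbers without normalization, for 9 libraries of MIA PaCa-2 cells. The submitters' processing notes name HISAT2 2.0.5, featureCounts 1.5.0-p3 and hg38. The strand setting and annotation are not given in the sources used here, and gene coordinates matched GENCODE release 29. Libraries were grouped by their titles. The 45 genes and all lists were chosen with earlier results of these data known.

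Counts were normalized by TMM and filtered by filterByExpr (minimum count 10, minimum total 15), and each pair of treatments was fitted separately with edgeR 4.0.16 (robust quasi-likelihood test, R 4.3.3), with Benjamini-Hochberg adjustment over all genes tested and a threshold of 0.05. Library totals of 9464432 to 13887859 counts limit precision for genes under about 10 counts. Errors are edgeR standard errors, computed from the change and its F statistic, or SDs over 3 libraries.

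Values in every library are given for the TFEB and ATG8 families, SQSTM1, the 2 largest called rises and falls of each step with SCH772984, and the 3 smallest p-values with compound 1. TP53INP2 was added after its values were seen. From the other lists the 2 largest called rises and falls are named, except for an item that is not reported here. Alternatives were DESeq2 1.42.0, a replicate block, RLE factors or the library size alone as scaling, tests restricted to protein-coding genes or to genes with 10 counts throughout, no filter, a joint fit of the 9 libraries, and leaving out each library. Promoter sequences came from RefSeq (GRCh38.p14).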

Additional observations from a re-analysis of the deposited data

How the results depend on the processing

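Across the alternatives, 284 of 293 refitted values of the genes described in every library kept their direction and side of the threshold with SCH772984, 7 lost a call, 2 gained one and 0 changed direction. With compound 1, 263 of 279 did so, 3 gained a call and 13 changed sign around 0. The counts with SCH772984 against DMSO were 24 to 27 higher and 7 to 10 lower when a library was left out; against compound 1 they were 23 to 27 and 6 to 7. With all libraries, 8 and 1 were at least 2-fold against DMSO (7 and 1 without DMSO replicate 3 or SCH772984 replicate 3) and 7 and 1 against compound 1. Against DMSO the calls lost were among AMBRA1, ATG4B, GABARAPL2, NBR1 and GABARAP, and ATG13 under scaling by library size alone, and those gained among RB1CC1, STX17, TFE3, ATG4D, ATG12 and PIK3R4; against compound 1 they were among ATG14, ATG7, ATG4D, MAP1LC3B, GABARAP and VMP1. With compound 1 the number higher was 1 (VMP1) without a count filter, 0 to 2 when a library was left out and 3 without adjustment, and the number lower was 0 to 1 and 3. Of the fits that left out a library, the one without compound 1 replicate 1 alone gave calls (VMP1, ATG12 and ATG4D), and it raised the calls over all genes from 63 higher and 48 lower to 453 and 798. Without a DMSO library these were 5 to 12 and 3 to 5, without compound 1 replicate 2 they were 27 and 24, and without replicate 3 they were 15 and 6.

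Replicate numbers showed no clear pairing of the libraries. Deviations of same-numbered libraries correlated at -0.10 to 0.16, and those of different numbers at -0.15 to 0.21. The labels do not say whether libraries are paired. A fit with a replicate block gave 26 higher and 9 lower with SCH772984 and 1 higher with compound 1, VMP1 (0.29, adjusted p = 0.022), and changed no other call. With compound 1, scaling by library size alone turned ULK1 to 0.011 and EPG5 to 0.013, and omitting the filter turned GABARAPL2 to -0.005; leaving out a library gave -0.058 to 0.015 for ULK1, -0.040 to 0.117 for UVRAG, -0.104 to 0.116 for GABARAPL2 and -0.128 to 0.071 for EPG5. The cause was not tested. Low counts limit GABARAP, BNIP3, TFEB and MITF, and counts cover sampling of reads only. Exons shared with other genes make GABARAP, ATG9A, WIPI1 and SQSTM1 less certain, since the strand setting is not known.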
